A study of Mus musculus with 30 samples.

Results

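Clca1, Clca4a and Clca4b are 3 genes of the mouse Clca family, the only 3 rows taken here by symbol from 24746 gene symbols counted in each library. All 3 have a row in each of the 30 count tables, Clca4b with 0 counts in 1 library, and passed the filter on low counts in every fit. They were chosen by their levels in these libraries: in colon injured with DSS, Clca1 was low and Clca4b was high. Their levels and fold changes are therefore given as a description with no p-value, and tests are kept for genes outside the choice.

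Clca proteins were first described as calcium-activated chloride channels and are now regarded as secreted or membrane-anchored proteins with a zinc metalloprotease domain that regulate such channels. Clca1 is a product of goblet cells that is released into mucus, where it can cleave the gel-forming mucin Muc2, and in human cells it holds the chloride channel Ano1 at the cell surface. Clca4a and Clca4b are close relatives known from the small intestine, where Clca4a has been described in enterocytes.

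The study measured RNA of whole distal colon and terminal ileum of C3H/HeOuJ mice by 3′ tag sequencing, in 10 groups of 3 libraries. The colon groups, all at 10 weeks of age, were specific-pathogen-free (SPF) mice given 1.5% DSS (dextran sulfate sodium, a chemical that injures the colon epithelium) for 4 days and then water for 2 days, germ-free mice colonized with SPF microbiota at 5 weeks (COL) with the same DSS course, untreated COL mice and untreated SPF mice. The ileum groups, all untreated, were COL, SPF and germ-free (GF) mice at 10 weeks and COL, SPF and GF mice at 6 weeks. Colon of germ-free mice was not analysed here. The labels number the libraries 1 to 3 in each group without saying that each came from a separate mouse, so errors and p-values measure the spread between these libraries only.

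Reads assigned to genes numbered 3830539 to 6791455 in the 12 colon libraries and 2233837 to 9088573 in the 18 ileum libraries. Levels are given in CPM, the count of a gene scaled to the library total after TMM adjustment, and each read stands for the 3′ end of a transcript. Fabp6, Slc10a2, Apoa4 and Apob, which mark ileal and small intestinal epithelium, were all lower in colon than in ileum, in both SPF and COL mice (edgeR's quasi-likelihood test, adjusted p between 1e-15 and 3e-07). The third SPF DSS colon library stood apart: 16 goblet cell genes summed to 2477 CPM there, against 11058 to 25340 CPM in the other 29 libraries.

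The 8 Clca genes lie together on the minus strand of chromosome 3, over 369.8 kb (chr3:144729677-145099443, mm10, GENCODE M21). In order of coordinate they are Clca3a1, Clca3a2, Clca3b, the transcribed pseudogene Clca4c-ps, Clca4b (chr3:144910921-144932529), Clca4a (chr3:144952480-144975045), Clca1 (chr3:145003817-145032776) and Clca2. Each coding gene has 14 exons in its longest transcript. The coding sequences of Clca4a and Clca4b were identical at 96% of aligned bases, whereas Clca1 matched each of them at 65.5%.

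The coding stretch around the zinc-binding motif of the protease domain, in exon 4, is shown because the 3 proteins share the motif. The other coding Clca genes hold it in exon 4 as well. Each line is 75 bases of coding sequence on the minus strand from the GENCODE M21 transcripts, joined across an intron, and the capitals mark the 15 bases that encode His-Glu-x-x-His. The stretches lie at chr3:145024573-145027310 (Clca1), chr3:144969355-144970333 (Clca4a) and chr3:144927175-144928214 (Clca4b).
Clca1: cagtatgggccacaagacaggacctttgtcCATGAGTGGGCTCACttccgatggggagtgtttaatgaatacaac
Clca4a: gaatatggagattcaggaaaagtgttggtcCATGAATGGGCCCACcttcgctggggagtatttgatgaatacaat
Clca4b: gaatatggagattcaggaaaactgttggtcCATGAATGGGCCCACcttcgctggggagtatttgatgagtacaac
Clca4a and Clca4b differed at 3 of the 75 bases and at 0 of the 15 in capitals. Clca1 differed from each at 24 bases, 2 of them in the capitals.

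Because Clca4a and Clca4b are so alike, reads from one could be counted for the other. In the last 500 bases of the transcripts, which 3′ tags come from, their longest identical run was 37 bases, and none of 451 windows of 50 bases in Clca4a occurred in Clca4b. Clca4a and Clca4c-ps shared a run of 171 bases, so their counts are less certain. Untreated colon gives a measure of the separation: Clca4b held 59 of 3091 counts of Clca4a and Clca4b together, a share of 1.91% (exact 95% interval 1.46 to 2.46%, counting error only). Even if all 59 were misassigned, few Clca4a reads were counted as Clca4b there. The reverse, Clca4b reads counted as Clca4a in DSS colon or ileum, is not measured by these counts.

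In colon injured with DSS, Clca1 was lower in every library than in untreated colon. In SPF mice its 3 DSS libraries had 286, 342 and 41.1 CPM, against 2132, 1696 and 2177 CPM in the untreated ones. In COL mice the DSS libraries had 234, 609 and 382 CPM, against 2233, 2629 and 2114 CPM without DSS. The groups did not overlap in either kind of mouse, and the lowest value was in the SPF library that also had few goblet transcripts. Of all genes tested, 17.1% had all 3 DSS libraries below all 3 untreated ones in SPF colon, and 17.2% did in COL colon. The fitted log2 fold change of Clca1 was -3.17 ± 0.58 in SPF colon (SE, n = 3 each) and -2.50 ± 0.56 in COL colon, which are 8.97-fold and 5.69-fold lower group means. Without the third SPF DSS library the SPF value was -2.67. In whole tissue, fewer cells that make a transcript and less of it per cell cannot be told apart.

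Clca4b went the other way. In SPF colon it had 556, 823 and 616 CPM after DSS, against 0.493, 1.44 and 4.30 CPM in untreated libraries, which held 2, 7 and 24 counts. In COL colon it had 444, 363 and 458 CPM after DSS, against 0, 2.76 and 1.76 CPM in untreated libraries, which held 0, 16 and 10 counts. The library with 0 counts allows up to 0.449 CPM, taking 3 counts as the limit. Clca4b was thus nearly absent from untreated colon, and its lowest DSS library was far above its highest untreated one. All 3 DSS libraries were above all 3 untreated ones for 17.2% of genes in SPF colon and for 17.3% in COL colon. The log2 fold change was 8.23 ± 0.69 in SPF colon and 8.16 ± 0.69 in COL colon (SE, n = 3 each), and the group means differed 320-fold and 280.3-fold. These folds rest on few counts in untreated colon: without the third untreated SPF library, which held 24 of that group's 33 counts, the SPF value was 9.34.

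Clca4a, 96% identical to Clca4b in its coding sequence, showed no such switch. Its libraries had 189, 253 and 85.1 CPM after DSS, against 42.2, 116 and 70.4 CPM in untreated SPF colon. In COL colon they had 115, 330 and 132 CPM after DSS, against 103, 120 and 90.6 CPM without it. The DSS and untreated libraries overlapped in both kinds of mouse. The log2 fold change was 1.20 ± 0.46 in SPF colon and 0.89 ± 0.46 in COL colon, and the COL value was 0.25 without the second COL DSS library, the one with 330 CPM. Clca4b made up 78.6% of the counts of the 2 genes in SPF DSS colon and 69.8% in COL DSS colon, against 2.84% and 1.35% in untreated SPF and COL colon.

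**Figure D1:**
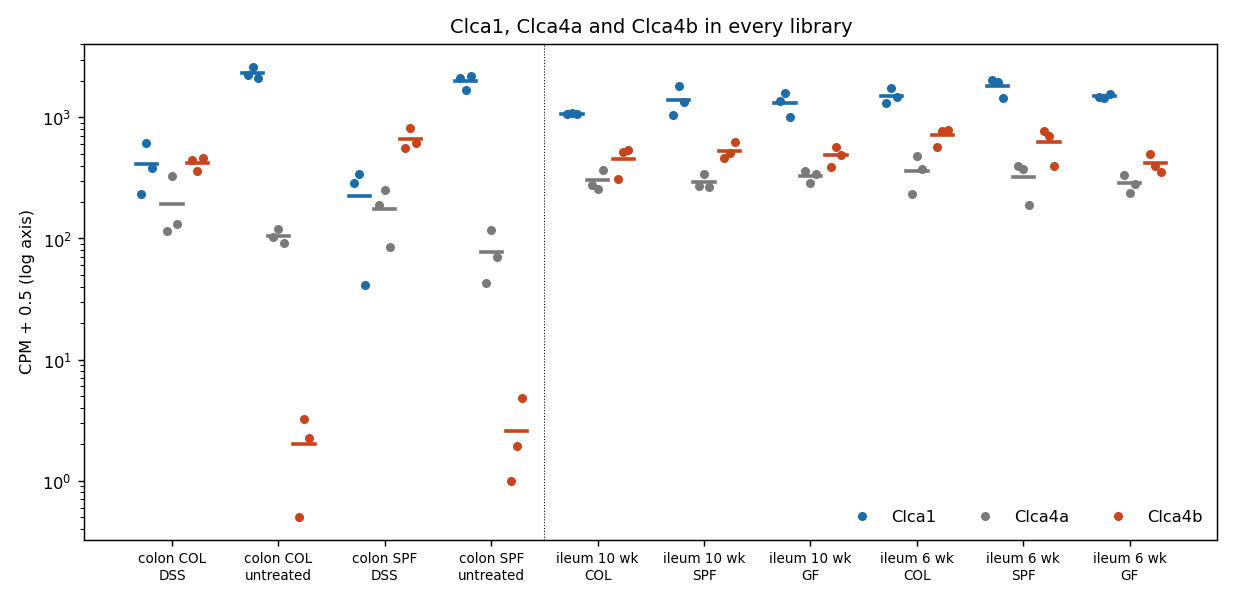
Levels of Clca1 (blue), Clca4a (grey) and Clca4b (orange) in each of 30 libraries, in CPM with 0.5 added on a log axis; points are libraries, bars are group means, and the dotted line parts colon from ileum. Clca4b sits between 363 and 823 CPM in the 6 DSS colon libraries and at or under 4.30 CPM in the 6 untreated ones, while Clca1 sits between 41.1 and 609 CPM in DSS colon and between 1696 and 2629 CPM in untreated colon.

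The ratio of the 2 genes within a library does not depend on library size. Since tags per transcript may differ between genes, only its change between libraries is read. The log2 ratio of Clca4b to Clca1 counts, with 0.5 added to each, averaged 2.04 ± 1.62 in SPF DSS colon and -10.27 ± 1.41 in untreated SPF colon (SD, n = 3 each). In COL colon it averaged 0.15 ± 0.84 after DSS and -11.63 ± 2.81 without DSS. DSS libraries ranged from -0.75 to 3.90 and untreated colon libraries from -14.86 to -8.95, with no overlap. The change was 12.31 in SPF colon and 11.77 in COL colon on the log2 scale. The value of -14.86 is that of the library with 0 Clca4b counts, where the 0.5 added sets the ratio, and without that library the COL change was 10.15. In the 6 ileum groups the mean ratio lay between -1.86 and -1.09, between those of untreated and DSS colon.

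**Figure D2:**
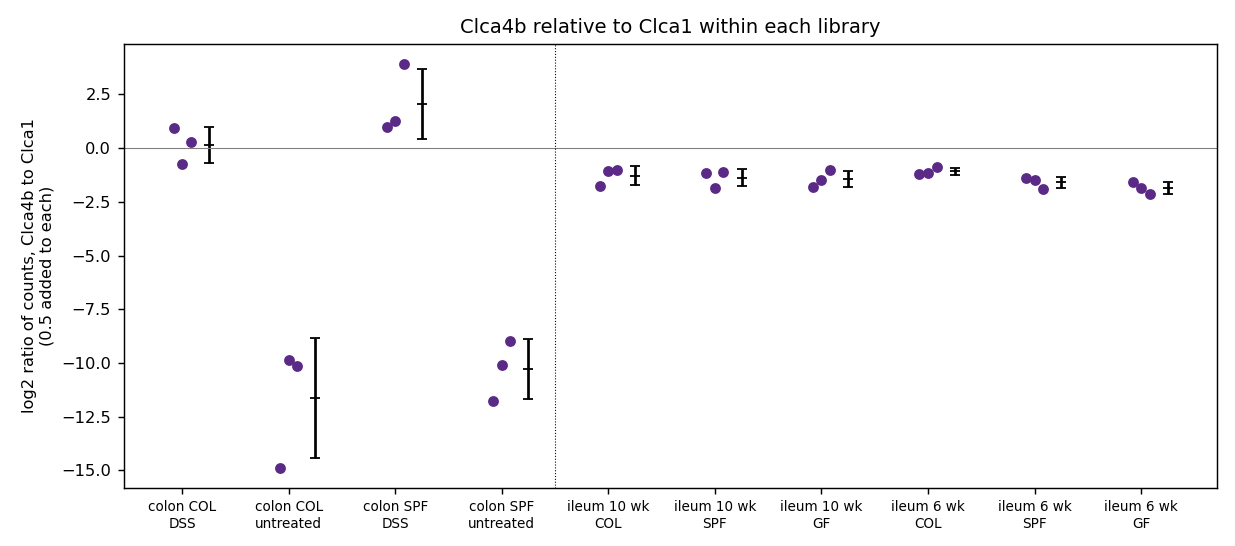
Within-library log2 ratio of Clca4b to Clca1 counts, with 0.5 added to each count; points are libraries, and the short bar with whiskers beside them is the group mean ± SD of 3 libraries. The 6 DSS colon libraries lie at -0.75 or above, the 6 untreated colon libraries at -8.95 or below, and the ileum groups average between -1.86 and -1.09.

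COL and SPF colon were also set against each other directly. After DSS, Clca4b was lower in COL than in SPF colon without overlap, at 444, 363 and 458 CPM against 556, 823 and 616 CPM, a log2 fold change of -0.66 ± 0.47. Of all genes, 6.38% had all 3 COL DSS libraries below all 3 SPF DSS ones, and 0.00778% were called. Clca1 (0.87 ± 0.54) and Clca4a (0.13 ± 0.45) overlapped between the 2 groups. In untreated colon the log2 fold changes of COL over SPF were 0.21 ± 0.53 for Clca1, 0.45 ± 0.46 for Clca4a and -0.59 ± 0.76 for Clca4b, all with overlap. The DSS effect in COL minus that in SPF colon was 0.67 ± 0.76 for Clca1, -0.32 ± 0.64 for Clca4a and -0.07 ± 1.03 for Clca4b (log2, SE). In that comparison of effects edgeR called 0% of 12855 genes at adjusted p under 0.05 and 8.73% (1122) at unadjusted p under 0.05, and DESeq2 called 17. These errors leave room for sizeable differences between COL and SPF mice.

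In untreated mice, Clca4b and Clca4a were lower in colon than in ileum and Clca1 was high in both tissues. At 10 weeks SPF colon averaged 2.08 ± 1.98 CPM of Clca4b, against 532 ± 80.9 CPM in SPF ileum (SD, n = 3 each). COL colon averaged 1.504 ± 1.40 CPM, against 454 ± 124 CPM in COL ileum. The log2 fold change of colon over ileum was -7.89 ± 0.53 in SPF and -8.27 ± 0.54 in COL mice. The groups did not overlap, as was so for 19% of genes below and 17.3% above in SPF mice and for 23% below and 21% above in COL mice. For Clca4a the same log2 fold changes were -1.94 ± 0.40 and -1.52 ± 0.40, again without overlap. Clca1 averaged 2002 ± 265 CPM in SPF colon and 1402 ± 389 CPM in SPF ileum, with overlap. In COL mice it averaged 2325 ± 269.6 CPM in colon and 1070.3 ± 12.9 CPM in ileum, without overlap, a log2 fold change of 1.12 ± 0.41.

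Ranked by mean over all 10 groups, the levels formed few steps, meaning neighbouring groups without overlap. The other Clca genes had 0 to 2 such steps, and steps were not counted over all genes. The number of steps is thus not read as a trait of the members. For Clca4b, 8 group means lay between 416 and 711 CPM, with COL ileum at 6 weeks, SPF DSS colon and SPF ileum at 6 weeks at the top. Neighbouring groups in that order overlapped. The single step without overlap was from GF ileum at 6 weeks (416 ± 76.1 CPM) down to untreated SPF colon. The DSS colon thus fell within the span of ileal Clca4b levels, 311 to 793 CPM in single ileum libraries, save 1 SPF DSS library at 823 CPM. For Clca1 the single step was from COL ileum at 10 weeks down to COL DSS colon. Among all 9 pairs of neighbours Clca4a had no step without overlap, from 362 ± 121 CPM in COL ileum at 6 weeks to 76.3 ± 37.3 CPM in untreated SPF colon.

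Over 9 comparisons within the ileum, the log2 fold changes ran from -0.45 to 0.30 for Clca1, from -0.22 to 0.34 for Clca4a and from -0.60 to 0.76 for Clca4b, with SEs of 0.19 to 0.25. Clca4b was highest in newly colonized ileum at 6 weeks, at 569, 772 and 793 CPM, against 499, 399 and 350 CPM in GF ileum of that age. These groups did not overlap, as was so in this direction for 11.8% of genes, and the log2 fold change was 0.76 ± 0.23. Without TMM scaling that value was 0.51, and the COL and GF libraries overlapped. SPF ileum at 6 weeks overlapped with GF ileum (0.59 ± 0.23). At 10 weeks Clca4b overlapped between COL and GF ileum (-0.05 ± 0.23) and between SPF and GF ileum (0.16 ± 0.23).

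Within COL ileum, Clca1 and Clca4b were both lower at 10 weeks than at 6 weeks. Clca1 had 1056, 1081 and 1074 CPM at 10 weeks, against 1308, 1746 and 1472 CPM at 6 weeks (-0.45 ± 0.19). Clca4b had 311, 518 and 533 CPM at 10 weeks, against 569, 772 and 793 CPM at 6 weeks (-0.60 ± 0.23). Neither gene overlapped between the ages, and 11.5% of genes lay below without overlap in that comparison. Without TMM scaling the values were -0.22 for Clca1 and -0.37 for Clca4b, and the Clca4b libraries then overlapped between the ages. In SPF and GF ileum the ages overlapped for all 3 genes.

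Clca1 was set beside 16 other genes of goblet cells, 15 of them tested in colon. In SPF colon, where 11.9% of genes were called lower and 12.2% higher after DSS, 10 of the 15 were lower and 1 was higher, with a median log2 fold change of -1.30 beside -0.03 over all genes. Klk1, a tissue kallikrein, fell by 2.96 ± 0.69 on the log2 scale, Muc2, the main mucin, by 2.00 ± 0.50, and Fcgbp, a mucus protein that binds IgG, by 1.77 ± 0.38 (edgeR adjusted p = 0.011, 0.011 and 0.0045). The count of lower genes was 8 without the third SPF DSS library and 6 without the second SPF DSS library or the first or second untreated SPF one. In COL colon, where 3% of genes were called lower and 4.14% higher, Fcgbp alone was lower (-1.34 ± 0.38, adjusted p = 0.041), a call lost when any 1 of the 6 libraries was left out, and Muc2 had a log2 fold change of -0.40 ± 0.49 (adjusted p = 0.67). Retnlb, a goblet cell antimicrobial protein, was higher in both, by 1.60 ± 0.54 in SPF and 2.96 ± 0.57 in COL colon (adjusted p = 0.046 and 0.0075). Its SPF libraries overlapped, and the SPF call was lost without the first or second library of either group.

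The fold change of Clca1 was below those of all 15 tested goblet genes in both DSS comparisons. This order held under the other settings and with single libraries left out, except that 1 goblet gene lay below Clca1 without the first SPF DSS library. The log2 ratio of Clca1 to the summed goblet genes averaged -5.56 ± 0.48 in SPF DSS colon and -3.32 ± 0.36 in untreated SPF colon (SD, n = 3 each). In COL colon it averaged -5.38 ± 0.55 after DSS and -2.78 ± 0.19 without DSS. The DSS libraries, at -5.91 to -4.76, did not overlap with the untreated colon libraries, at -3.61 to -2.55. In the ileum the group means ran from -4.08 to -3.29. Part of this came from Retnlb, which moved the other way and had 4428 to 7408 CPM in COL DSS colon, against 515 to 1033 CPM in untreated COL colon. With Retnlb left out of the sum, a choice made after seeing the data, the ratio averaged -4.90 ± 0.53 in SPF DSS colon and -3.23 ± 0.33 in untreated SPF colon, and -4.76 ± 0.49 in COL DSS colon and -2.71 ± 0.19 in untreated COL colon, still without overlap. The change was then -1.68 in SPF colon, against -2.24 with Retnlb, and -2.05 in COL colon, against -2.61 with it. The COL goblet sums overlapped with Retnlb, at 12913 to 18652 CPM after DSS and 15442 to 16240 CPM without DSS, and did not overlap without Retnlb, at 8485 to 11309 CPM and 14792 to 15725 CPM. These are descriptions, since Clca1 was chosen for its fall.

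**Figure D3:**
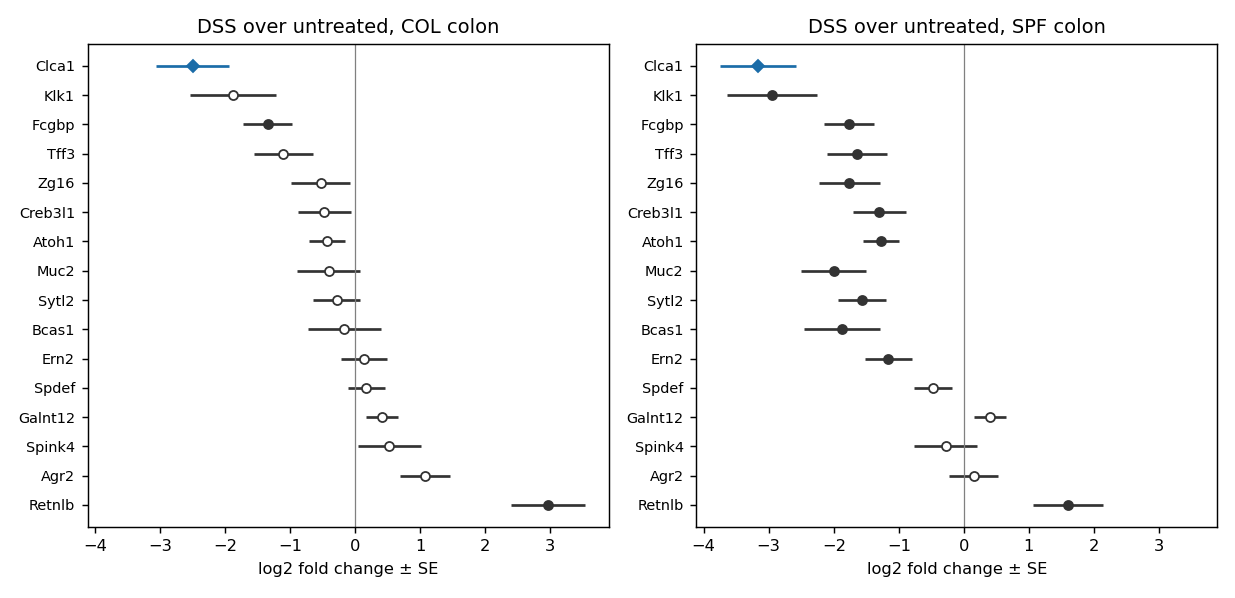
Log2 fold change of DSS over untreated colon, with its SE, for Clca1 (blue diamond, not tested) and 15 goblet cell genes (circles, filled where the adjusted p is under 0.05), in COL colon (left) and SPF colon (right), ordered by the COL value. Clca1 has the lowest value in both panels, at -2.50 in COL and -3.17 in SPF colon, and Retnlb the highest.

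Clca3a1, Clca3a2 and Clca3b were not used in the choice and were tested. All 3 of them were higher after DSS in SPF colon, where 12.2% of genes were. Clca3b had 124, 260.2 and 420.4 CPM in SPF DSS colon, against 92.0, 79.4 and 50.5 CPM in untreated SPF colon, and rose by a log2 fold change of 1.87 ± 0.46 (edgeR adjusted p = 0.011). Its lowest DSS library was above the highest untreated one. Clca3a1 rose by 2.03 ± 0.59 and Clca3a2 by 1.90 ± 0.48 (adjusted p = 0.020 and 0.010). Without the third SPF DSS library neither passed the test, at 1.54 (adjusted p = 0.10) and 1.42 (adjusted p = 0.062), and Clca3a1 did not pass either without the third untreated SPF library, at 1.58 (adjusted p = 0.061).

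In COL colon, where 4.14% of genes were called higher, none of the 3 passed edgeR's test, with log2 fold changes of 1.75 ± 0.57 for Clca3a1, 1.502 ± 0.48 for Clca3a2 and 1.59 ± 0.46 for Clca3b (adjusted p = 0.072, 0.066 and 0.051). All 3 had every DSS library above every untreated one, as did 17.3% of genes, and an unadjusted p under 0.05, as did 23% of genes. DESeq2, which called 1463 genes in that comparison, called all 3 (adjusted p = 0.030, 0.028 and 0.0053). Without the third untreated COL library edgeR called Clca3a2 (2.02, adjusted p = 0.047) and Clca3b (2.09, adjusted p = 0.028). The difference between the DSS effects in COL and SPF colon, from -0.40 to -0.28 on the log2 scale with SEs of 0.63 to 0.82, was called for none of them (adjusted p from 0.90 to 0.95). Clca3a1 and Clca3a2 are 97.1% identical in coding sequence and shared 26 of 451 windows of 50 bases at the 3′ end, so their counts may be exchanged in part. Each of the 3 genes, like Clca4a, overlaps an annotated transcript on the other strand, and the strand setting of the counting was not given in the sources used here.

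Clca3b was also higher in colonized than in GF ileum, at both ages. At 6 weeks it had 148, 119 and 129.6 CPM in SPF ileum and 164, 131 and 152 CPM in COL ileum, against 74.8, 62.3 and 70.6 CPM in GF ileum. At 10 weeks it had 132, 183 and 232 CPM in SPF ileum and 147, 168 and 169.7 CPM in COL ileum, against 70.8, 80.4 and 37.8 CPM in GF ileum. Every colonized library was above every GF library of its age. The log2 fold changes over GF were 0.95 ± 0.21 in SPF and 1.10 ± 0.21 in COL ileum at 6 weeks (adjusted p = 0.0054 and 0.0022), and 1.55 ± 0.22 in SPF and 1.40 ± 0.22 in COL ileum at 10 weeks (adjusted p = 4.2e-05 and 8.8e-05). The share of genes called higher was 4.36%, 2.78%, 4.22% and 5.11% in these 4 comparisons. These calls held with each single library left out.

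Clca3a2 passed the test in 2 of those 4 comparisons, SPF over GF at 6 weeks (1.08 ± 0.33, adjusted p = 0.040) and COL over GF at 10 weeks (1.10 ± 0.32, adjusted p = 0.028). The first call was lost without SPF replicate 1 or 2 or GF replicate 2 or 3 (adjusted p up to 0.24), and the second without COL replicate 2 or 3 or GF replicate 1 or 3 (adjusted p up to 0.13). Clca3a1 passed in none, with log2 fold changes of 0.82 to 1.43 on 40 to 98 counts per group, except that SPF over GF at 10 weeks passed without GF replicate 3 (2.22, adjusted p = 0.043). In untreated colon, the 3 genes were lower than in ileum in SPF mice, by 1.68 ± 0.60 for Clca3a1, 1.68 ± 0.43 for Clca3a2 and 1.30 ± 0.37 for Clca3b on the log2 scale (adjusted p = 0.030, 0.0026 and 0.0078), where 17.2% of genes were called lower. Without the third untreated SPF colon library Clca3a1 (-1.22, adjusted p = 0.14) and Clca3b (-1.06, adjusted p = 0.052) did not pass, nor did Clca3a1 without the third SPF ileum library (-1.24, adjusted p = 0.14). In COL mice, where 14.3% were, Clca3a2 (-2.10 ± 0.41, adjusted p = 2e-04) and Clca3b (-1.74 ± 0.37, adjusted p = 7.5e-04) were lower and Clca3a1 was not called (-1.35 ± 0.57, adjusted p = 0.079), except without the first untreated COL colon library (-1.97, adjusted p = 0.035).

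**Figure D4:**
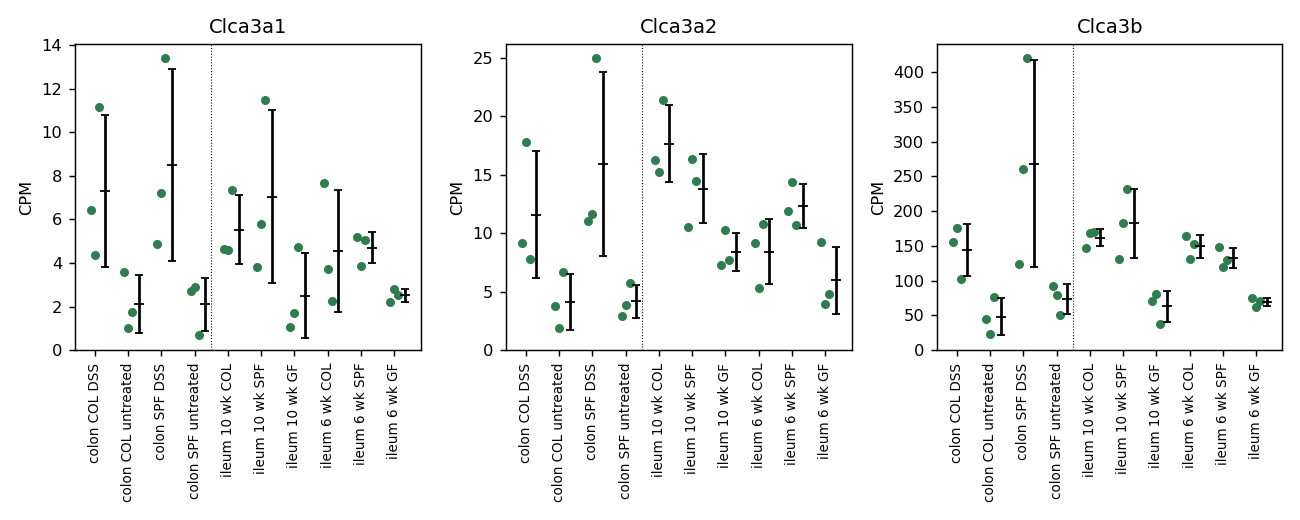
Levels of Clca3a1, Clca3a2 and Clca3b in CPM in each of 30 libraries on linear axes; points are libraries, the short bar with whiskers is the group mean ± SD of 3, and the dotted line parts colon from ileum. Clca3b is at 103 to 420.4 CPM in DSS colon, 23.1 to 92.0 CPM in untreated colon, 119 to 232 CPM in colonized ileum and 37.8 to 80.4 CPM in GF ileum.

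Clca2 and the pseudogene Clca4c-ps were too sparse to test. Clca2 had at most 10 counts in any group. Clca4c-ps had 34 counts in SPF DSS colon and 12 in COL DSS colon, against 0 and 2 in untreated SPF and COL colon. In SPF colon that is at least 10.5-fold higher, taking 3 counts over the untreated group as the limit, and in COL colon 6.37-fold higher (exact 95% interval 1.42 to 58.6, counting error only). The 18 ileum libraries held 1 count of Clca4c-ps beside 31957 of Clca4a and 54445 of Clca4b. The pseudogene was therefore seen in injured colon but scarcely in ileum, where its neighbours were high.

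The nearest coding genes on either side of the cluster were tested as well. Of Lmo4, Hs2st1, Selenof and Sh3glb1 on one side and Odf2l, Znhit6 and Ddah1 on the other, Ddah1, an enzyme that breaks down inhibitors of nitric oxide synthesis, was the only one called in any of the 4 DSS and colon-over-ileum comparisons; Col24a1 was not tested. After DSS, 12.2% of all genes were called higher and 11.9% lower in SPF colon, and 4.14% and 3% in COL colon. In colon against ileum 17.2% were called lower in SPF and 14.3% in COL mice. A single call among so few genes is near such shares. Ddah1 is not adjacent to the cluster: it starts at chr3:145758675, whereas the cluster ends at chr3:145099443, and Odf2l, Col24a1 and Znhit6 lie between. Ddah1 had 74.8, 223 and 321 CPM in SPF DSS colon, against 12.6, 18.5 and 8.96 CPM in untreated SPF colon. In COL colon it had 129.7, 157 and 80.8 CPM after DSS, against 8.08, 12.9 and 13.7 CPM without DSS. All DSS libraries were above all untreated ones, as was so for 17.2% of genes in SPF colon and 17.3% in COL colon. The log2 fold change was 3.96 ± 0.49 in SPF and 3.41 ± 0.48 in COL colon (adjusted p = 2.1e-04 and 7.8e-04), and that of untreated colon over ileum was -3.15 ± 0.37 in SPF and -3.39 ± 0.37 in COL mice (adjusted p = 8e-08 and 2.4e-08).

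**Figure D5:**
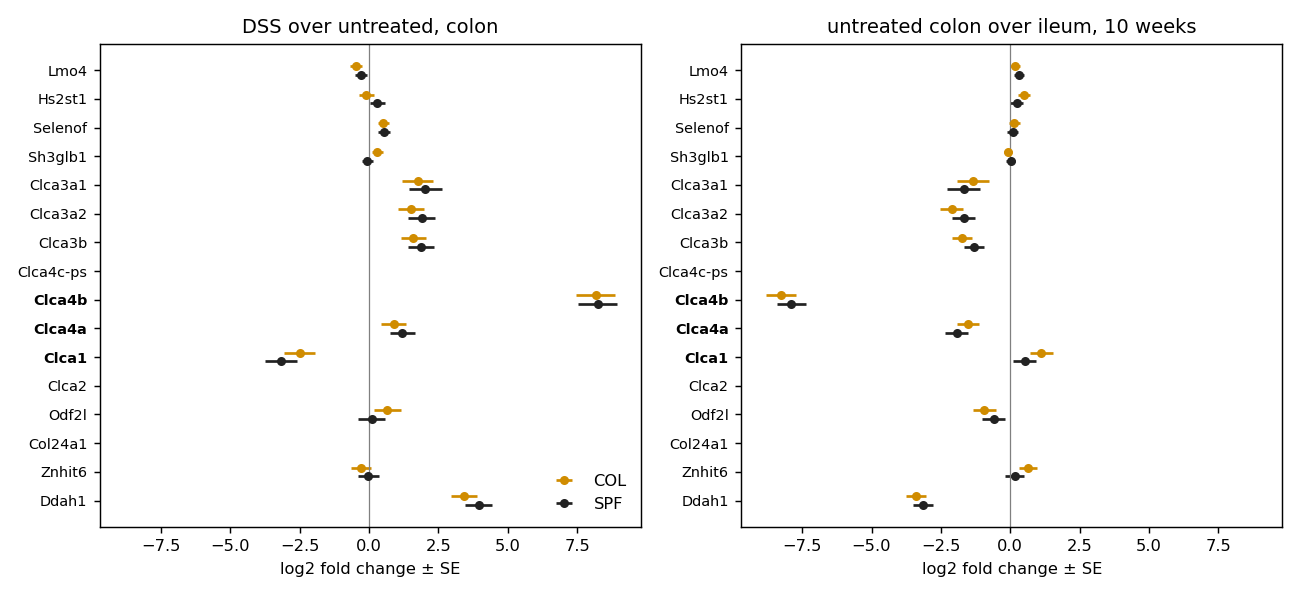
Log2 fold change with its SE for the Clca genes (members in bold) and their neighbours in chromosomal order, for DSS over untreated colon (left) and untreated colon over ileum at 10 weeks (right), in COL (orange) and SPF (black) mice; genes without points were too sparse to be fitted. In the left panel Clca4b lies at 8.16 and 8.23, Clca1 at -2.50 and -3.17 and Ddah1 at 3.41 and 3.96, and Sh3glb1, the nearest gene beyond Clca3a1, at 0.29 and -0.07.

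A promoter was at hand for Clca4b, and not for Clca1 or Clca4a. It is shown because Clca4b is the member that was nearly absent in one state of the colon and abundant in another. The line holds the 250 bases before the start site on the minus strand (chr3:144932530-144932779, RefSeq, GRCm38.p6), and capitals mark matches found on either strand.
Clca4b: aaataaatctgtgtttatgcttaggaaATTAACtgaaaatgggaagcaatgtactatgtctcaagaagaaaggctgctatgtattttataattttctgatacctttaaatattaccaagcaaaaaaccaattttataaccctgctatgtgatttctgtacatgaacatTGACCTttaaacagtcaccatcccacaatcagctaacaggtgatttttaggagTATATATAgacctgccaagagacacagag
The capitals are, in order, a match to HNF1 letters (GTTAAT, on the other strand), one to nuclear receptor letters (AGGTCA, on the other strand) and a run that holds the TATA letters TATATA in overlapping matches, of which the first starts 29 bases before the start site. Of 32851 mouse promoters with the same window, which reaches 50 bases past the start site, 7.1% held GTTAAT, 16.3% AGGTCA and 5.67% TATATA. No match to AP-1 (TGANTCA), STAT (TTCNNNGAA), STAT6 (the STAT letters with 1 more N) or CDX (TTTATNG) letters was found in this window, where 7.81%, 8.3%, 6.95% and 10.9% of promoters held one. These are matches of letters, not sites shown to be bound.

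Genes with the most similar profiles were ranked by Pearson's r of log2 CPM, as a description over libraries that share tissue and treatment. Over all 30 libraries Clca1 was most like Fcgbp (r = 0.90), Phgr1, Plbd1, Mettl7b and Crim1, down to r = 0.87. It was least like Sprr2k (-0.95), a cornified-envelope protein gene that had 0 counts in all 8 untreated groups, and S100a9 and Wfdc12. Clca4a was most like Serpinb1a (0.90), Mgst1, Calml4, Btnl5-ps and Nckap5, and least like Il17re (-0.87), Apela and Hoxd10. Clca4b was most like Ddah1 (0.95), followed by Pclaf (0.93) and Top2a (0.93), both genes of dividing cells, Gcat and Depdc1b, and least like Fbxo32 (-0.93), Msantd1 and Methig1.

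Those ranks depend on tissue and on the measure. Within the 12 colon libraries the closest genes were Ppp2r3a (0.98) for Clca1, followed by Car2, Vwa8, Abcb1a and Fcgbp, then Fem1c (0.92) for Clca4a, and Mfsd2a (0.99), Gda, E2f2, Ly6a and Dennd2d for Clca4b. Within the 18 ileum libraries they were Sgk2 (0.86), Chd1 (0.79) and Pof1b (0.89) for Clca1, Clca4a and Clca4b. Fcgbp was the one gene among the 5 closest to Clca1 both over all libraries and in colon. With Spearman's rho in place of r, 0 of the 5 closest genes over all libraries remained for Clca1 and Clca4b, and 1 of 5 for Clca4a. Ddah1 averaged 206 ± 124 CPM in SPF DSS colon and 122 ± 38.5 CPM in COL DSS colon, against 11.6 ± 3.04 CPM in untreated COL and 13.3 ± 4.82 CPM in untreated SPF colon (SD, n = 3 each), and 113 to 159 CPM in the ileum groups.

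Clca proteins act on chloride channels, so genes of anion and water secretion were counted. After DSS, 1 of 11 tested genes was higher and 5 were lower in SPF colon, beside 12.2% and 11.9% of all genes, with a median log2 fold change of -0.89 beside -0.03 over all genes. The single higher gene is thus near the share over all genes. Ano1, the calcium-activated chloride channel, fell by 1.40 ± 0.33 (edgeR adjusted p = 0.0066), the chloride and bicarbonate exchanger Slc26a3 by 1.83 ± 0.27 (adjusted p = 3.8e-04), the potassium channel Kcnq1 by 1.12 ± 0.24 (adjusted p = 0.0044) and the water channel Aqp8 by 1.68 ± 0.34 (adjusted p = 0.0027) on the log2 scale. Clcn2, another chloride channel, was higher (0.80 ± 0.28, adjusted p = 0.048). Best2, a goblet cell anion channel, was not called (-1.74 ± 0.65, adjusted p = 0.073). The Clcn2 call was lost without the second SPF DSS library or the first or second untreated SPF one. In COL colon 0 of 11 were higher and 2 lower, Slc26a3 (-0.99 ± 0.26) and Aqp8 (-1.37 ± 0.33; adjusted p = 0.029 and 0.019), beside 4.14% and 3% of all genes, and 0 or 1 were lower when any 1 of the 6 libraries was left out. In untreated mice Ano1 was higher in colon than in ileum, by 5.31 ± 0.36 in SPF and 4.57 ± 0.34 in COL mice (adjusted p = 6.8e-13 and 6.3e-12).

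Surface epithelium was described by 12 genes, 11 of them tested. In SPF colon 5 were lower and 1, Tmigd1 (2.66 ± 0.51, edgeR adjusted p = 0.0022), was higher after DSS, beside 11.9% and 12.2% of all genes, and 3 were lower without the third SPF DSS or the first untreated SPF library. In COL colon the same 2 as above, Slc26a3 and Aqp8, were lower, beside 3% of all genes. None of 7 genes of epithelium at large (Epcam and keratins among them) was called in either comparison, with summed levels of 4684 to 8810 CPM in SPF DSS colon and 5719 to 9371 CPM in untreated SPF colon.

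Of 15 genes of wound-associated epithelium, 14 were tested; 4 were higher and 2 lower in SPF colon, and 3 higher and 1 lower in COL colon. Of all genes 12.2% were higher and 11.9% lower in SPF colon, and 4.14% and 3% in COL colon. In SPF colon 2 were higher without SPF DSS replicate 2 or 3 or untreated SPF replicate 1 or 3. The shares over all genes are those with all libraries. The genes called in SPF colon numbered 3097 then, and 1915 to 3409 with single libraries left out. In so short a list the SPF counts are not read as different from the shares. Ly6a, a surface protein of regenerating epithelium that was among the 5 genes most like Clca4b in colon, rose by 5.07 ± 0.45 in SPF and 4.70 ± 0.44 in COL colon (edgeR adjusted p = 6.6e-06 and 1.9e-05). Of 10 genes of the interferon-gamma response, 9 were higher in SPF colon and 8 in COL colon, beside those shares, among them the immunoproteasome subunit Psmb8 (3.22 ± 0.28 in SPF, adjusted p = 6.6e-06); the COL count was 5 without the third COL DSS library or any 1 untreated COL library. Among 3 tested Paneth cell genes 2 rose in each, Mmp7 by 6.84 ± 1.13 in SPF and 2.53 ± 0.74 in COL colon and Pla2g2a by 2.87 ± 0.33 in SPF and 3.91 ± 0.35 in COL colon (adjusted p = 9.2e-04, 0.049, 8.6e-05 and 1.1e-05). The COL call of Mmp7 was lost without the first COL DSS library or the first or second untreated COL one.

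Because Clca4b in injured colon lay at ileal levels, ileal markers were set beside it. None of the 3 tested of Fabp6, Slc10a2, Apoa4 and Apob was called after DSS in either kind of mouse. Of all genes 12.2% were called higher in SPF colon and 4.14% in COL colon, so no call in so short a list is near those shares. Fabp6, the ileal bile acid binding protein, came nearest in SPF colon, with a log2 fold change of 3.55 ± 1.18 (edgeR adjusted p = 0.056). Its DSS libraries were all above its untreated ones there, as was so for 17.2% of genes. The 4 genes summed to 40.7 to 269.9 CPM in SPF DSS and 39.1 to 196 CPM in COL DSS colon, against 16.2 to 61.7 CPM in untreated COL and 13.8 to 21.7 CPM in untreated SPF colon, and to 11964 to 36334 CPM in ileum. Apoa4 was at 0 in both DSS groups and in untreated SPF colon.

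The cytokines Il13 and Il4 act through the receptor subunit Il4ra and the factor Stat6 and are known inducers of Clca1 in mouse airway. Of 14 genes of this axis 9 were tested. In SPF colon 3 were higher and 1 lower after DSS, and in COL colon 2 were higher; 1 was higher in SPF colon without SPF DSS replicate 2 or untreated SPF replicate 2 or 3, and 1 in COL colon without untreated COL replicate 1 or 3. With all libraries, 12.2% of all genes were higher and 11.9% lower in SPF colon, and 4.14% were higher in COL colon. The counts with a library left out have no such share beside them. In so short a list the SPF counts are not read as different from the shares. Il4ra rose by 2.56 ± 0.32 in SPF and 1.38 ± 0.31 in COL colon (edgeR adjusted p = 1.5e-04 and 0.013), while Stat6 had log2 fold changes of 0.16 ± 0.24 and -0.08 ± 0.24 (adjusted p = 0.66 and 0.88). Retnlb, given above with the goblet genes, is also in this list. It and Il4ra are the 2 genes called in COL colon, and both are among the 3 called higher in SPF colon. Il4 and Il5 had 0 counts in all 4 colon groups, and Il13 in all but SPF DSS colon.

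Genes listed for other cell types also changed with DSS. All 6 tested of 8 neutrophil and monocyte genes were higher in SPF colon and 3 in COL colon, beside 12.2% and 4.14% of all genes. Their sums were 3343 to 4818 CPM in SPF DSS and 2701 to 3227 CPM in COL DSS colon, against 1236 to 1342 CPM in untreated COL and 991 to 1410 CPM in untreated SPF colon. These sums rest mostly on Ly6g and Plac8, which averaged 2079 and 1552 CPM in SPF DSS colon and 577 and 662 CPM in untreated SPF colon. Both were thus high in untreated SPF colon, where S100a8 was at 0.348 CPM. Plac8 also averaged 465 CPM in GF ileum at 10 weeks, where S100a8 was at 0. The sums and the calls of Ly6g and Plac8 are therefore not a measure of neutrophil or monocyte number. Whether the other calls reflect cell number was not tested. S100a8, a defining neutrophil gene, averaged 190 ± 287 CPM in SPF DSS and 8.75 ± 7.61 CPM in COL DSS colon, against 0.394 ± 0.558 CPM in untreated COL and 0.348 ± 0.236 CPM in untreated SPF colon, and S100a9 and Csf3r were at 0 in untreated COL colon. The COL count was 1 without the first or second untreated COL library. Of 6 smooth muscle genes 4 were lower in SPF colon and 0 in COL colon, beside 11.9% and 3% of all genes, with sums of 858 to 2640 CPM in SPF DSS colon and 4625 to 5589 CPM in untreated SPF colon, and of 1134 to 3981 CPM in COL DSS colon and 4209 to 4450 CPM in untreated COL colon. None of 8 macrophage, 4 tested B cell and 2 tested tuft cell genes was called in either. The part of such shifts in the changes of Clca1 and Clca4b was not tested.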

How the data were processed

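Total RNA of whole tissue was made into 3′ tag libraries, per the labels. The authors deposited 1 table of read counts per library, 24746 symbols and 5 summary lines, which were left out of library sizes. Per the submitters' processing notes, Trimmomatic 0.36, FastQC 0.11.5, STAR 2.5.3a and HTSeq were used with build mm10. Reads that map to several places were 28.0 to 36.9% of reads, per the deposited summary lines, and are not in the gene counts, which can lower near-identical genes.

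Colon (12 libraries, 12855 genes), ileum (18, 13233) and both (30, 13807) were fitted with edgeR 4.0.16 (TMM, filterByExpr, robust quasi-likelihood; R 4.3.3), with Benjamini-Hochberg adjustment over all genes and a threshold of 0.05; code was tested on simulated data. The 16 comparisons, members and 15 lists were chosen with earlier results of these data known. Named genes are the Clca genes, the genes most like each member, and per list the called genes with the smallest p or defining markers. DESeq2 1.42.0, other scalings and filters, subsets and a replicate block were alternatives. Replicate numbers come from the titles. Among comparisons within a tissue, same-numbered libraries deviated together (all r over 0.1) only in SPF against GF ileum at 10 weeks (r of 0.246, 0.189 and 0.159). Colon over ileum was not checked in this way, and its errors treat the libraries as unpaired. Within groups, no pair of libraries agreed within sampling noise. Intervals and limits cover counting error only. Levels use TMM factors over 30 libraries, 0.98 to 1.11 in colon and 0.812 to 1.12 in ileum.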

Additional observations from a re-analysis of the deposited data

How the results depend on the processing

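Clca1, Clca4a and Clca4b kept the direction of their DSS and colon-over-ileum log2 fold changes under every setting run. With single libraries left out, DSS over untreated ran in SPF colon from -3.61 to -2.67 for Clca1, 0.85 to 1.63 for Clca4a and 7.83 to 9.34 for Clca4b, and in COL colon from -2.91 to -2.21, 0.25 to 1.16 and 7.53 to 8.97. Clca4b colon over ileum in SPF mice ran from -9.001 to -7.49, and its DSS effect in COL minus SPF colon from -1.18 to 0.73, so the sign of that difference is not settled. A run without TMM scaling was an alternative added after seeing the data. It put Clca1 in ileum at 6 weeks at 0.085 for SPF over GF. For COL over GF the Clca1 value was -0.23, where its sign turned from 0.01, and for 10 over 6 weeks in COL mice it was -0.22. Clca4b was then 0.51 for COL over GF ileum at 6 weeks and -0.37 for 10 over 6 weeks in COL mice. The cause was not tested. DSS called 3097 genes in SPF colon, 1728 with only the 6 libraries compared and 1915 to 3409 with single libraries left out. In COL colon it called 918, 1463 with DESeq2, 1839 with only the 6 libraries and 376 to 602 with single libraries left out, which have fewer samples. With the replicate block, Clca3a2 in SPF over GF ileum at 6 weeks had an adjusted p of 0.053. The untreated colon's few Clca4b counts limit the size of its fold change.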
